A study of Mus musculus with 6 samples.

Results

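Ccl22, Cd209a, Clec4n and Tyro3 are 4 genes with immune functions, of which Tyro3 is also expressed by neurons. They were found, by name, among the 466 genes the authors listed as different between microglia with and without Piezo1. Poly(A) RNA of microglia freshly isolated from adult brain was sequenced as paired reads of 150 bases in 3 knockout and 3 control samples. Both groups were male mice on the C57BL/6N strain that carried 5×FAD, transgenes that produce the amyloid deposits of Alzheimer's disease. The knockout mice carried Cx3cr1CreER-EYFP, a tamoxifen-inducible Cre recombinase at the locus of a microglial receptor that other myeloid cells also express, together with Piezo1 fl/fl. The product of Piezo1 is a cation channel opened by mechanical force. The control mice were Piezo1 fl/fl littermates for which no Cre allele is named. All mice received 4 daily doses of tamoxifen at 20 mg/kg from 4.5 weeks of age. Loss of Piezo1 and the presence of the Cre allele cannot be told apart in this design. The titles call the samples biological repetitions and do not say how many mice each holds, so any spread between them may be partly technical.

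The 4 genes cover different steps of how cells sense and respond to their surroundings. Ccl22 encodes a chemokine that dendritic cells and macrophages release and that attracts T cells through the receptor CCR4. Cd209a and Clec4n encode C-type lectins, cell surface receptors that bind sugars in a calcium-dependent way: Cd209a is a mouse relative of the human dendritic cell lectin DC-SIGN, and Clec4n encodes Dectin-2, which recognises mannose-rich glycans of fungi and signals through the Fc receptor gamma chain. Tyro3 encodes a receptor tyrosine kinase of the TAM family, with Axl and Mertk, whose ligands Gas6 and protein S bridge it to phosphatidylserine on dying cells. In the brain, microglia are known to express Axl and Mertk, dendritic cells lie mainly at the meninges and choroid plexus, and Tyro3 is also expressed by neurons.

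All 4 genes were chosen by name from the authors' table, which was itself selected on the fold change and p of these same samples: every listed gene had an unadjusted p below 0.05 and at least a doubling or halving, a log2 fold change beyond 1 in size. Such genes were 2.44% of the 19107 that the authors' adjustment covered, with 2.15% listed as lower in the knockout and 0.293% as higher. The total of 19107 was worked out from the smallest deposited p and its adjusted value, assuming a Benjamini-Hochberg adjustment. Ccl22, Cd209a and Tyro3 were lower and Clec4n was higher, as were 410 and 56 of the 466 listed genes. Since this contrast chose the genes, their values are given as a description with no test. In the authors' deposited table, the unadjusted p was 0.00782 for Ccl22, 0.0147 for Tyro3, 0.0448 for Clec4n and 0.0466 for Cd209a. Those of Clec4n and Cd209a lay close to the largest p in that table, 0.0499, and genes beyond it were not analysed here. Adjusted over all genes, the authors' deposited table gives p = 0.919 for Ccl22 and 1.00 after rounding for each of the other three, whereas 3.00% of the listed genes had an adjusted p under 0.05 there. A limma fit over all 466 genes called 0 genes (0%) at an adjusted p of 0.05, with 245 at an unadjusted p under 0.05. On recovered reads, edgeR called 0 and DESeq2 called 49, all lower.

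The stretches just before the transcription start are shown for the 3 genes that were lower together. They were taken from RefSeq (GRCm38.p6), where 3 of the 4 genes matched and Clec4n did not. Each is the 250 bases before the start, 5′ to 3′ on the gene's strand, at chr8:94745434-94745683 (+) for Ccl22, chr8:3748985-3749234 (-) for Cd209a and chr2:119799264-119799513 (+) for Tyro3. The start is that of RefSeq: the whole Tyro3 stretch and 94 bases of the Ccl22 stretch lie inside the gene as the deposited table places it, whereas the Cd209a stretch lies outside. Capitals mark CpG dinucleotides.
Ccl22: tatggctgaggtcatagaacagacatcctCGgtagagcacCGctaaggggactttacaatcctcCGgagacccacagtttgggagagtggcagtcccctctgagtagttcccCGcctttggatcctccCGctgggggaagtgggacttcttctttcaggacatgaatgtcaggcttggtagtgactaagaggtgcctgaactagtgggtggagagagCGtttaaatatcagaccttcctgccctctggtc
Cd209a: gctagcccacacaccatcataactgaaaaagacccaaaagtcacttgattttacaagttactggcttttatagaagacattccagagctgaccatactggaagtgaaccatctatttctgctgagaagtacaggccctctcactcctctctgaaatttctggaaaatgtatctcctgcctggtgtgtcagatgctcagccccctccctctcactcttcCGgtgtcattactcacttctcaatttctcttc
Tyro3: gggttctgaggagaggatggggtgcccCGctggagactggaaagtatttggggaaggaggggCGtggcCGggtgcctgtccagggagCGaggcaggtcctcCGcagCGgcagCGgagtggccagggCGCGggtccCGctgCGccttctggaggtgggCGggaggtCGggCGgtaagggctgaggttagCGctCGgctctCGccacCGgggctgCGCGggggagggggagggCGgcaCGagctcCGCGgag

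Tyro3 had 24 CpG dinucleotides and 73.2% G and C, against medians of 6 and 52.4% over 32851 promoter stretches of the same length. Cd209a had 1 CpG and 44.8% G and C, and Ccl22 had 6 CpG and 53.6%. Both strands were also searched for 4 motifs: the PU.1 core GAGGAA, the CCAAT box CCAAT, the AP-1 motif TGANTCA and the TATA box TATAAA. Cd209a held 1 match to TATAAA, on the opposite strand 184 bases before the start, and no other match was found in the 3 stretches. Of all stretches, 23.3% held the PU.1 core, 33.8% the CCAAT box, 6.75% the AP-1 motif and 12.4% the TATA box. A match is one of letters only.

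Ccl22, the chemokine, had 3.93, 5.11 and 4.05 normalised reads in knockouts 1, 2 and 3 and 20.6, 23.3 and 12.7 in controls 1, 2 and 3. Every control was above every knockout, and the lowest control was 2.49 times the highest knockout. The means were 4.36 ± 0.647 and 18.9 ± 5.49 normalised reads (SD, n = 3 each). The limma log2 fold change, knockout minus control on log2(value + 1), was -1.86 (SE 0.69), and the authors' deposited table gives -2.11. These values rest on 13 reads in the knockout and 58 in the controls, a 4.33-fold lower summed level with an exact 95% counting interval of 2.35 to 8.62. In bulk RNA, fewer cells of a type and less RNA per cell cannot be told apart, here and for the genes below.

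Cd209a, the DC-SIGN relative, had 3.93, 3.06 and 5.06 normalised reads in knockouts 1, 2 and 3 and 11.8, 14.5 and 13.7 in controls 1, 2 and 3. The groups did not overlap, and both were even: the highest control was 1.24 times the lowest. Means were 4.02 ± 1.00 in the knockout and 13.3 ± 1.42 in the controls (SD, n = 3 each). The limma log2 fold change was -1.53 (SE 0.69), with a 95% interval of -3.07 to 0.0143 that includes 0, and that in the authors' deposited table was -1.73. With 12 reads in the knockout against 41 in the controls, the summed level was 3.32-fold lower (exact 95% counting interval 1.71 to 6.94). The variance of the reads between samples was 0.25 times their mean in the knockout and 0.171 times in the controls, where counting error alone gives 1 on average.

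Clec4n, the Dectin-2 gene, was the one of the 4 with more reads in the knockout. It had 6.88, 2.04 and 6.07 normalised reads in knockouts 1, 2 and 3, 0 in controls 1 and 2 and 0.978 in control 3. In reads, these were 7, 2 and 6 against 0, 0 and 1, so the difference rests on 16 reads in all. A count of 0 allows up to 2.94 normalised reads in control 1 and 2.91 in control 2, a floor of 3 reads that covers counting error only, and knockout 2 lay below both. The upper ends of the exact 95% counting intervals of these zeros, as drawn in the plot of values by sample, were 3.62 and 3.58 normalised reads. The exact 95% counting interval of knockout 2 was 0.247 to 7.38 normalised reads and that of control 3 was 0.0248 to 5.45, so these libraries were not distinguishable at this depth. Means were 5.00 ± 2.59 and 0.326 ± 0.565 normalised reads (SD, n = 3 each). The summed level was 15.4-fold higher in the knockout, with an exact 95% counting interval of 2.38 to 649.9. The limma log2 fold change was 2.14 (SE 0.74), while the authors' deposited table gives 3.84. A value this close to 0 makes the fold depend on how low counts are handled.

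Tyro3, the apoptotic cell receptor, had 11.8, 2.04 and 6.07 normalised reads in knockouts 1, 2 and 3 and 19.6, 36.9 and 17.6 in controls 1, 2 and 3. Control 2 stood above the other controls and knockout 2 below the other knockouts. The lowest control was 1.49 times the highest knockout, the narrowest separation among the 4 as a ratio. Means were 6.64 ± 4.90 and 24.7 ± 10.6 normalised reads (SD, n = 3 each), the limma log2 fold change was -1.91 (SE 0.79), and the authors' deposited table gives -1.89. The 20 reads in the knockout and 76 in the controls gave a 3.69-fold lower summed level, with an exact 95% counting interval of 2.23 to 6.38. Between samples, the variance of the reads was 3.80 times their mean in the knockout and 4.79 times in the controls, so that interval leaves out much of the spread.

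**Figure D1:**
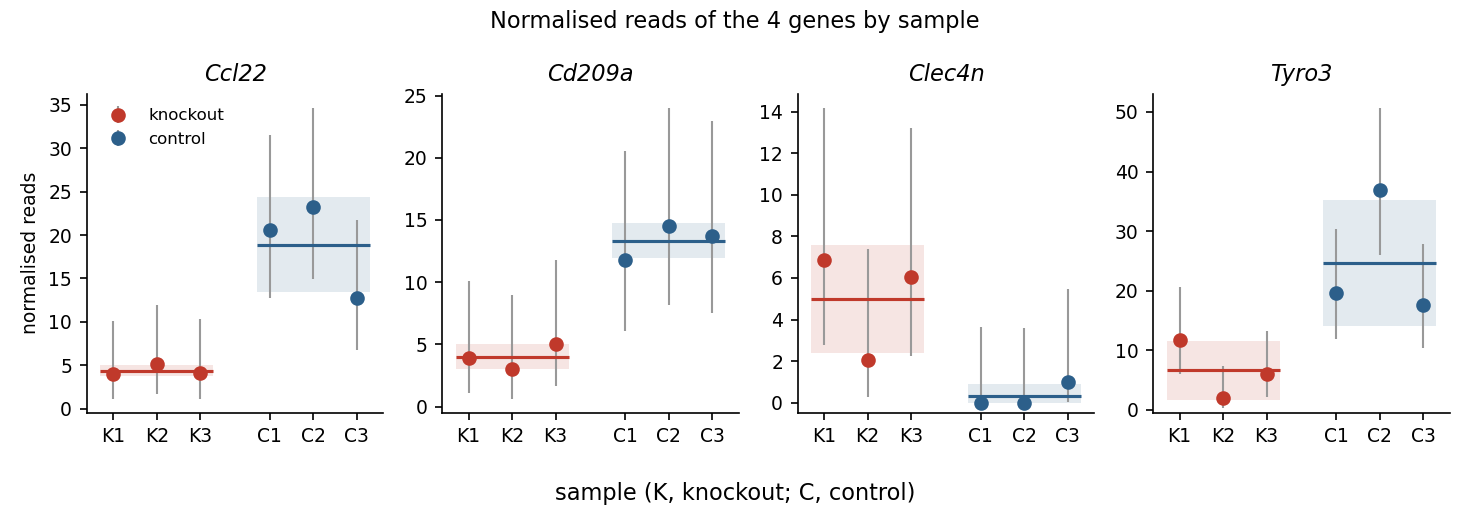
Normalised reads of Ccl22, Cd209a, Clec4n and Tyro3 (vertical axes, a separate scale for each gene) in 3 knockout samples (red, K1 to K3) and 3 control samples (blue, C1 to C3). Points are samples with exact 95% counting intervals in grey, horizontal lines are group means and shaded bands are ± 1 SD; Ccl22, Cd209a and Tyro3 lie lower in every knockout than in any control, and Clec4n lies between 2.04 and 6.88 in the knockouts and between 0 and 0.978 in the controls.

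The groups did not overlap for any of the 4 genes. Of all 466 listed genes, 55.4% had groups that did not overlap, including 51.5% of the lower and 83.9% of the higher genes, and the selection of the table favours such genes. The median limma log2 fold change over all listed genes was -1.99, so the 3 lower genes had differences near or smaller than it. By mean level over the 6 samples, Tyro3 ranked 170, Ccl22 216, Cd209a 253 and Clec4n 430 from the highest of the 466 listed genes.

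The 3 lower genes were more even between the controls than most listed genes. The SD of log2(value + 1) over the 3 controls was 0.15 for Cd209a, 0.43 for Ccl22 and 0.55 for Tyro3, against a median of 1.18 over the listed genes. Counted from the smallest SD, they ranked 22, 58 and 81 of 466, with 11 genes that had no control reads, and so an SD of 0, among those before them. Clec4n, with a control SD of 0.57, ranked 85, with 2 of its 3 controls at 0. For 13 of the 410 lower genes the top sample was control 1, for 173 it was control 2 and for 224 control 3. Ccl22, Cd209a and Tyro3 were each highest in control 2. That rank was within counting error for Ccl22 (24 reads against 21 in control 1) and Cd209a (15 against 14 in control 3).

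**Figure D2:**
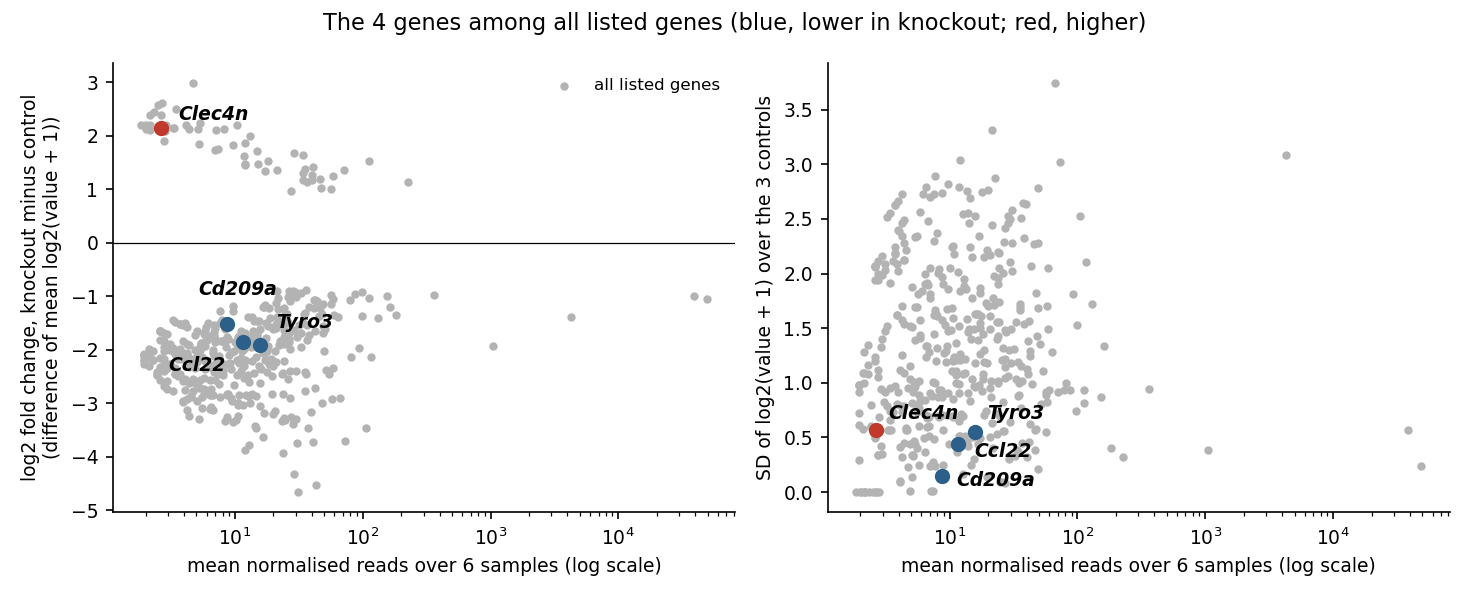
Each point is 1 of the 466 listed genes, by mean normalised reads over the 6 samples (horizontal axes, log scale) against the limma log2 fold change (left) and the SD of log2(value + 1) over the 3 controls (right). Blue points mark Ccl22, Cd209a and Tyro3, with log2 fold changes of -1.86, -1.53 and -1.91 and control SDs of 0.43, 0.15 and 0.55; the red point marks Clec4n, at 2.14 and 0.57. The gap around 0 on the left follows from the authors' selection.

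Levels of different genes were compared as normalised reads per kilobase, with the gene length of the deposited table. In controls, Cd209a stood at 8.43 ± 0.898, Ccl22 at 8.11 ± 2.36, Tyro3 at 3.98 ± 1.71 and Clec4n at 0.230 ± 0.398 normalised reads per kilobase (SD, n = 3 each). In that order, the sample ranges of Cd209a and Ccl22 overlapped, and so did those of Ccl22 (5.47 to 10.01) and Tyro3 (2.84 to 5.95). Clec4n, at 0 to 0.689 normalised reads per kilobase, lay below all 3. In the knockout the order of means was Clec4n at 3.52 ± 1.83, Cd209a at 2.54 ± 0.632, Ccl22 at 1.88 ± 0.278 and Tyro3 at 1.07 ± 0.791 normalised reads per kilobase (SD, n = 3 each). Each neighbouring pair overlapped there, so that order does not hold beyond the spread between samples. Clec4n, whose mean level was the lowest of the 4 in controls, thus had the highest mean in the knockout, with a range of 1.44 to 4.85 that reached into those of Cd209a, Ccl22 and Tyro3.

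The Ccl22 gene (ENSMUSG00000031779) lies at chr8:94745590-94751699 (+), beside 2 other chemokine genes, Cx3cl1, whose product is the ligand of the receptor Cx3cr1, and Ccl17, whose product also binds CCR4. Coordinates of genes are those of the deposited table (GRCm38). Neither Cx3cl1 nor Ccl17 was listed. On the other side, the nearest coding gene was Pllp, which encodes the myelin-associated membrane protein plasmolipin and starts 0.0707 Mb from the start of Ccl22. Pllp was listed with the opposite direction, at 6.88, 3.06 and 4.05 normalised reads in knockouts 1, 2 and 3 and 0 in every control. It was the one listed gene of 44 coding genes starting within 1 Mb of Ccl22. Neighbouring genes that are both in the table therefore differed in direction, one with no reads in the controls and the other with most of its reads there.

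Cd209a (ENSMUSG00000031494), at chr8:3743397-3748984 (-), lies in a cluster of lectin genes between Clec4g and Cd209e. Clec4n (ENSMUSG00000023349), at chr6:123229843-123247021 (+), lies in another, between Clec4b2 and Clec4d. None of these direct neighbours, nor Clec4e or Cd209d one gene further, was listed. Tyro3 (ENSMUSG00000027298), at chr2:119797733-119818104 (+), lies between Rpap1 and Mga, with 20 exons in its longest annotated transcript. Within 1 Mb, 0 other genes were listed near Cd209a and near Tyro3. Near Clec4n the one listed gene was Mfap5, a microfibril protein gene with 22.5 normalised reads in control 3 and 0 in every other sample. No annotated gene overlaps any of the 4 on either strand. Of all 50-base words in their GENCODE transcripts, 0 were shared with another gene for Ccl22, Cd209a and Tyro3. For Clec4n, 0.686% were shared, with Gm44147.

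Other genes of the same cells and pathways were mostly not listed, and a gene that is not listed was not analysed here. Of 29 dendritic cell genes, Ccl22 and Cd209a were the 2 listed, both lower; Flt3, Zbtb46, Ccr7 and the MHC class II genes of that list were not. Among 20 border macrophage genes, Cd209a was listed as lower and Clec4n as higher, and among 41 C-type lectin genes the same pair was listed. Ccl22, Cd209a and Clec4n were placed in these lists by name, so finding them there is no result. The dendritic cell, border macrophage and C-type lectin lists held no other listed gene. Monocyte genes (15) and genes that signal downstream of the lectins (20), such as Fcer1g, Syk and Card9, gave 0 listed. So did 29 genes of disease-associated microglia, a list that holds the TAM receptor gene Axl. At the 2.44% of genes that the table holds, lists of these sizes would contain few or none in any case. limma called 0 genes of every list. By the authors' adjusted p, Cx3cr1 was the one gene under 0.05 in the dendritic cell, macrophage, monocyte, lectin, apoptotic cell uptake, chemokine and microglia lists. Cx3cr1 was also the one listed gene of 25 homeostatic microglia genes, at 27906 to 35698 normalised reads in the knockout and 58569 to 79363 in the controls, so it is the one marker at hand for the labelled cell type. Its locus carries the Cre allele in the knockout mice, so its level does not check the cell type between the groups.

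Apoptotic cell uptake genes were listed for 2 of 34, both lower, with Tyro3 placed in that list by name. Of all genes, 2.15% were listed as lower. Besides Tyro3, this was Adgrb1, which encodes BAI1, a phosphatidylserine receptor. It had 2.95, 21.4 and 0 normalised reads in knockouts 1, 2 and 3 and 34.3, 30.1 and 28.4 in controls 1, 2 and 3. Knockout 2 was thus the highest knockout for Adgrb1 and the lowest for Tyro3. Axl, Mertk, Gas6 and Pros1, the other TAM receptors and the ligands, were not listed.

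Chemokine and chemokine receptor genes were listed for 4 of 54, all lower: Ccl22, Cx3cr1, Cxcr3 and Cxcl5. Ccl22 was placed in that list by name, and 2.15% of all genes were listed as lower. Cxcr3, a receptor typical of activated T and NK cells, had 3.93, 12.3 and 4.05 normalised reads in knockouts 1, 2 and 3 and 22.6, 14.5 and 26.4 in controls 1, 2 and 3. Its groups did not overlap, but knockout 2 came close to control 2. Cxcl5, which attracts neutrophils, had 25.4 normalised reads in control 3 and 0 in every other sample. Ccr4, the receptor for the product of Ccl22, was not listed.

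Listed markers of other brain cells were also lower in the knockout by group mean. For these lists and those below, 2.15% of all genes were listed as lower, and 410 of the 466 listed genes were lower. The lists were chosen with earlier results of these data known. Neuron markers were listed for 14 of 35, all lower, and their summed level was 41.3, 114 and 21.2 normalised reads in knockouts 1, 2 and 3 and 137, 285 and 981 in controls 1, 2 and 3. The most abundant of them were Thy1, Snap25 and Nrgn. In the knockouts, 3, 0 and 6 of these 14 had no reads, and in the controls 0, 0 and 0. Tyro3, which neurons also express, was lowest in knockout 2, where the neuron sum was the highest of the knockouts. It was also lower in control 3 than in control 2, while the neuron sum was 981 against 285, and 439 against 242 without Thy1, which alone gave 542 of the 981. Of the 13 markers other than Thy1, 11 were highest in control 3 and 2, Grin1 and Nefh, were highest in control 2, as Tyro3 was. Tyro3 had only 12, 2 and 6 reads in knockouts 1, 2 and 3. The counting interval of knockout 3, 2.23 to 13.2 normalised reads, overlapped those of knockouts 1 and 2 widely, so the place of knockout 3 is uncertain. Those of knockout 1 (6.10 to 20.6) and knockout 2 (0.247 to 7.38) met only near their ends, and overlap of intervals is no test of their order. The part of neuronal RNA in the Tyro3 difference was not tested.

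For choroid plexus and ependymal cells, 10 of 19 markers were listed, all lower, led by the transthyretin gene Ttr. Their summed level was 2065, 904 and 598 normalised reads in knockouts 1, 2 and 3 and 3534, 19466 and 369 in controls 1, 2 and 3. Control 2, where this sum was highest, was also the highest sample for Ccl22, Cd209a and Tyro3. For Ccl22 and Cd209a that rank was within counting error, at 24 reads against 21 in control 1 and 15 against 14 in control 3. Ttr made up most of the choroid plexus and ependymal sum. Without Ttr it was 110, 57.2 and 35.4 normalised reads in knockouts 1, 2 and 3 and 165, 895 and 104 in controls 1, 2 and 3, so control 3 lay above knockouts 2 and 3 and below knockout 1. Of the 10 markers, 4 were higher in control 3 than in every knockout, which are 1500015O10Rik, Aqp1, Cldn2 and Kcnj13. Without control 2, the limma log2 fold changes were -1.69 for Ccl22, -1.47 for Cd209a and -1.59 for Tyro3. Of the remaining lists, mural and fibroblast genes were listed for 4 of 20, astrocyte genes for 3 of 16, endothelial genes for 2 of 16, erythroid genes for 2 of 7 and T and NK cell genes for 1 of 22, all lower. Their summed levels ranged from 46.5 to 92.4 against 141 to 567 normalised reads (mural and fibroblast), 3.04 to 22.5 against 10.8 to 143 (astrocyte), 48.6 to 70.8 against 89.3 to 236 (endothelial) and 0 to 28.6 against 28.5 to 268 (erythroid), in knockouts against controls. The mural and fibroblast sum and the endothelial sum were highest in control 2, as the 3 lower genes were, within counting error for Ccl22 and Cd209a. The astrocyte and erythroid sums were highest in control 3. Within the mural and fibroblast and the endothelial lists, Igfbp2, Ptgds and Pltp were highest in control 2, and Acta2, Apod and Spock2 were highest in control 3. The 1 listed gene of the 22 on the T and NK cell list was Bcl11b, with 0 reads in every knockout and 0.981, 0.970 and 18.6 normalised reads in controls 1, 2 and 3. Most of its reads were thus in control 3, where the neuron sum was also highest, and 1 gene cannot show the level of a cell type. Oligodendrocyte (16), B cell (10) and neutrophil (13) genes gave 0 listed. The part of these cells in the differences of the 4 genes was not tested.

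**Figure D3:**
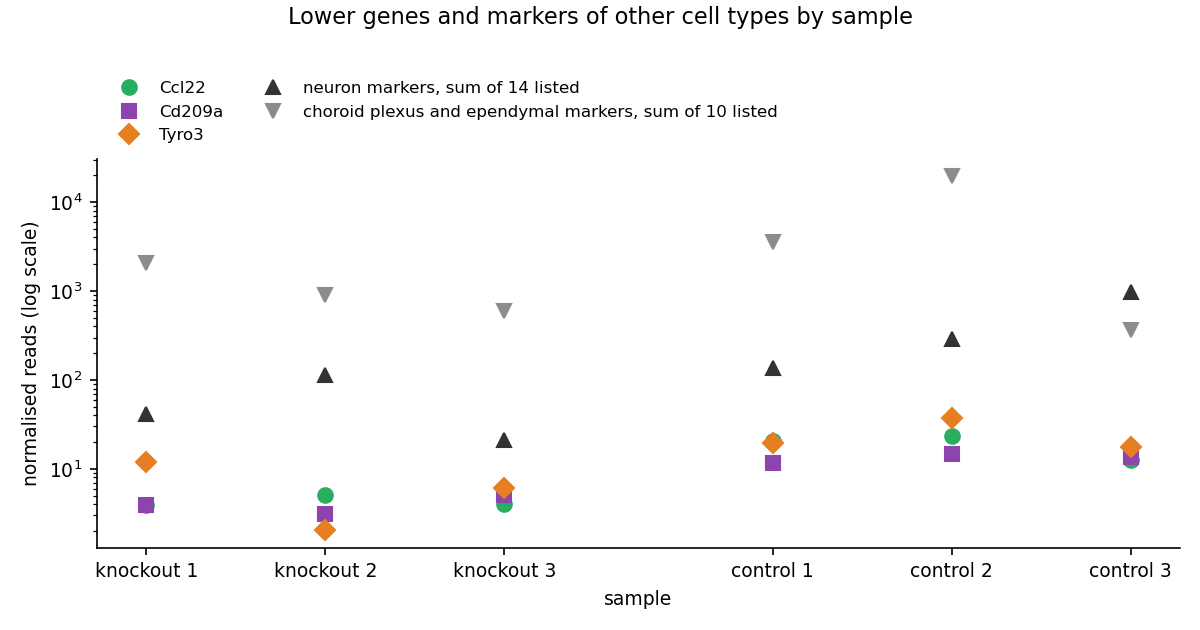
Normalised reads (vertical axis, log scale) of Ccl22, Cd209a and Tyro3 and the summed levels of the 14 listed neuron markers and the 10 listed choroid plexus and ependymal markers in each of the 6 samples. The sums range from 21.2 to 981 and from 369 to 19466 normalised reads, whereas the 3 genes stay between 2.04 and 36.9; in the controls, the neuron sum is highest in control 3 and the choroid plexus sum in control 2.

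The listed genes with the pattern most like each of the 4 were taken by the root mean square difference of standardised log2(value + 1) over the 6 samples, where 0 is the same pattern. All listed genes were selected for a group difference, so some likeness is built in. For Ccl22 they were Klf15 (0.110), Nptx2 (0.137) and Fam189a1 (0.166), against a median of 0.736 over the listed genes. Klf15, a Kruppel-like transcription factor gene, had 11.8, 13.3 and 12.1 normalised reads in knockouts 1, 2 and 3 and 31.4, 39.8 and 22.5 in controls 1, 2 and 3. Those of Cd209a were Cd59a (0.156), Npr3 (0.165) and Pcdh20 (0.197), against a median of 0.711. Cd59a, which encodes an inhibitor of the complement membrane attack complex, had 2.95, 3.06 and 4.05 against 12.8, 17.5 and 12.7 normalised reads. Nptx2, Fam189a1 and Pcdh20 had 0 reads in every knockout and at most 7.76 normalised reads in any control, so their likeness rests on few reads.

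Among the genes closest to Tyro3 were Hs6st2 (0.265) and Spint2 (0.293), against a median of 0.858. Spint2, which encodes an inhibitor of serine proteases, had 22.6, 6.13 and 14.2 normalised reads in knockouts 1, 2 and 3 and 22.6, 95.05 and 36.2 in controls 1, 2 and 3. Like Tyro3, it was highest in control 2 and lowest in knockout 2, but its knockout 1 and control 1 were level. The genes most like Clec4n were the noncoding A230020J21Rik (0.263) and 1810006J02Rik (0.291) and the olfactory receptor gene Olfr266 (0.299), against a median of 1.65. A230020J21Rik is annotated as antisense and Olfr266 belongs to a large gene family, so their reads are uncertain.

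Under 14 other settings for the 3 lower genes and 13 for Clec4n, each gene kept its direction. As the groups did not overlap for any of them, leaving out samples or changing the pseudocount could not reverse a direction. The differences of Ccl22, Cd209a and Tyro3 shrank most when the samples were rescaled by their median ratio over listed genes, to log2 fold changes of -0.46, -0.15 and -0.48, while Clec4n went to 2.92. This setting moved the middle of the whole table up by 1.03 on the log2 scale, since most listed genes had been selected as lower.

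**Figure D4:**
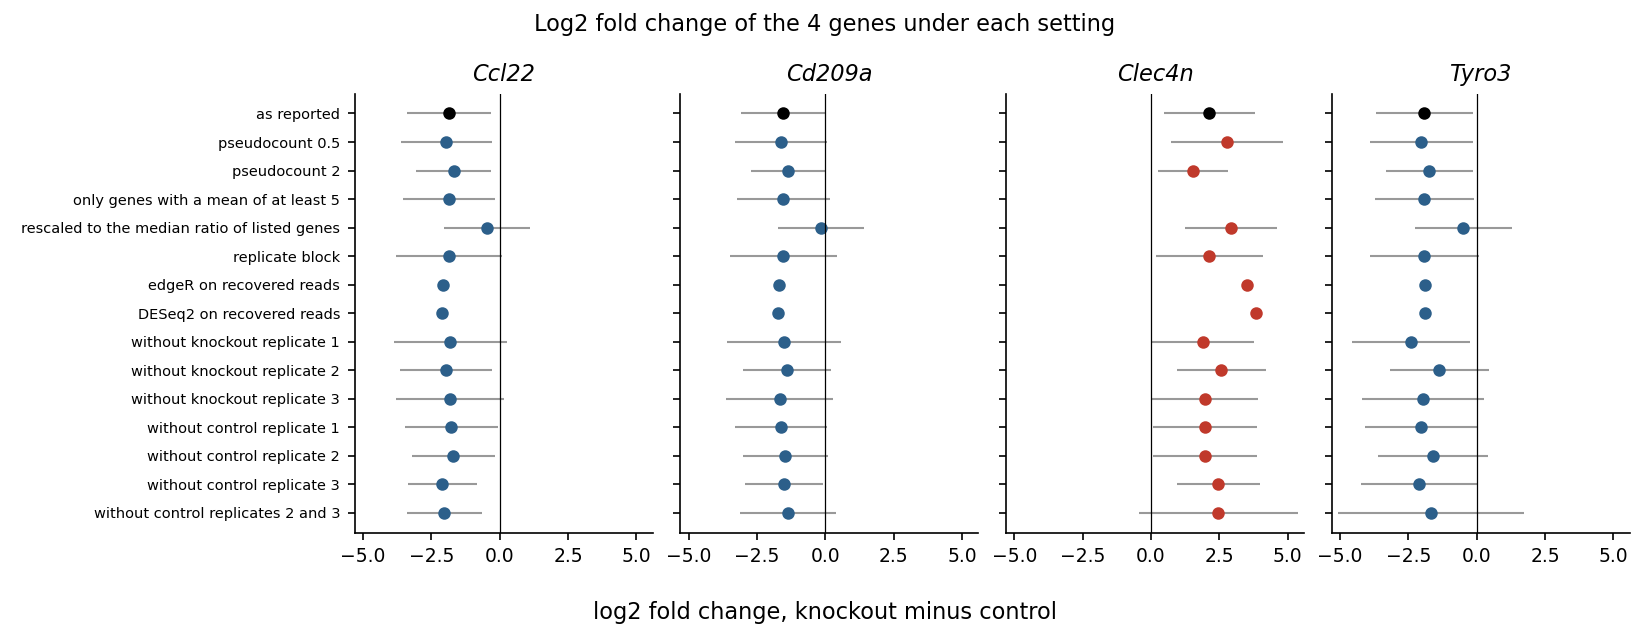
Log2 fold change, knockout minus control (horizontal axes), of Ccl22, Cd209a, Clec4n and Tyro3 as reported (black) and under each other setting (blue, lower; red, higher), with 95% intervals of the limma fits in grey; the edgeR and DESeq2 points have none. All points of Ccl22, Cd209a and Tyro3 lie below 0, nearest to it after rescaling (-0.46, -0.15 and -0.48), and all points of Clec4n lie above 0, between 1.53 and 3.84.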

How the data were processed

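The submitters' processing notes name R 3.6.1, DESeq2, RSEM 1.2.30, HISAT2 and cutadapt 1.11, and the build GRCm38, without their order. For each gene and sample the authors deposited a normalised read count (a signal value). All values (100%) were whole multiples of the value of 1 read in their sample (tolerance 1e-06), with size factors from 0.979 to 1.03, so reads were recovered. The authors also deposited a log2 fold change and a p-value, raw and adjusted. The table is limited to selected genes, so library depth is unknown, and Piezo1 was not among them, so genotypes were not checked by it. Reads in the 466 listed genes ranged from 49643 (knockout 2) to 180760 (control 3).

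The whole table was fitted with limma 3.58.1 (R 4.3.3) on log2(value + 1), with a mean-variance trend, Benjamini-Hochberg adjustment and no filter. edgeR 4.0.16 and DESeq2 1.42.0 were run on recovered reads. All 3 were tested on simulated data. Counting intervals are exact (Poisson for a sample, Clopper-Pearson for a ratio) and cover counting error only. Positions were compared with GENCODE M21 (GRCm38), where 466 of 466 genes had the same chromosome and 458 the same start. Listed genes were named by these rules: the 4 genes, the 3 listed genes most like each, listed genes of 7 immune lists and listed genes within 1 Mb. The rules also covered the 3 most abundant of the neuron list and of the other cell type lists, not all of which are printed. Outside these rules, Grin1, Nefh, Cldn2, Kcnj13, Apod, Apof, Klk11, Pla2g3 and Tmem89 were named after the values were seen. The members and all 19 gene lists were chosen with earlier results of these data known, and the motifs after the sequences were seen. One gene that these rules name for Tyro3 is not reported here.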

Additional observations from a re-analysis of the deposited data

How the results depend on the processing

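The number of genes called by limma at an adjusted p of 0.05 was 0 as reported. It stayed at 0 with a pseudocount of 2, with genes under a mean of 5 left out (345 tested, Clec4n not among them) and with edgeR. It was 120 with a pseudocount of 0.5, 56 after rescaling to the median ratio of listed genes (10 lower and 46 higher), 49 with DESeq2 and 54 without controls 2 and 3 together, where the lone control is assumed to vary like the other samples. Leaving out each sample in turn gave 0 to 196, with 196 without control 1, 36 without control 3 and 0 in the other 4 cases. With the replicate number as a block it was 4. Same-numbered samples did not deviate together (r = -0.04, -0.04 and 0.07 across genes, which are not independent), so the numbers are not taken to pair the samples. These counts come from genes selected on the same samples and are not independent evidence of a difference. No gene of the 4 changed direction, which leaving out samples could not bring about, as their groups did not overlap. Leaving out 1 sample gave log2 fold changes of -2.10 to -1.69 for Ccl22, -1.67 to -1.39 for Cd209a, 1.89 to 2.57 for Clec4n and -2.40 to -1.36 for Tyro3. The cause of these shifts was not tested. Total reads of 16 to 96 per gene limit what can be said of any one sample.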

Other observations

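Clec4n was 1 of 17 genes, among the 56 listed as higher, with 0 or 1 read over all 3 controls. Of these, 11 had 0. Of the 56 listed genes that were higher in the knockout, 28 were protein-coding, and 7 of these had 0 or 1 read over all 3 controls: Apof, Clec4n, Klk11, Olfr266, Pla2g3, Pllp and Tmem89. Their reads in the knockout summed to 11 (Apof), 15 (Clec4n), 16 (Klk11), 13 (Olfr266), 12 (Pla2g3), 14 (Pllp) and 13 (Tmem89). By the log2 fold change in the authors' deposited table, Clec4n ranked 17 from the highest of the 56. This set was formed after the values were seen, and a gene with so few reads can be listed only if nearly all of them fall in 1 group.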
